A study of Mus musculus and Canis lupus familiaris and Equus caballus with 9 samples.

Results

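The 8 mouse microRNA genes described here are Mir124a-1, Mir124a-2 and Mir124a-3, which each encode miR-124, Mir9-1, Mir9-2 and Mir9-3, which each encode miR-9, and the neighbours Mir132 and Mir212. They were taken by name from the 1228 microRNA genes of a RefSeq annotation of GRCm38.p6 (mm10), and all 8 were found. NRSF (also called REST) had been immunoprecipitated with a monoclonal antibody from RAW264.7 cells, an established macrophage line of BALB/c origin, at passages 13 to 15. The cells were fixed with 1% formaldehyde. There were 2 immunoprecipitated samples and 1 input sample without antibody, with no treatment or genetic change named for any of them. The authors deposited 1 list of 2357 peaks for both immunoprecipitated samples together, each peak being a position 400 bp wide with no score. No value per replicate, no read depth and no replicate error could therefore be given for any distance or count below, and all of them are descriptions of this list. Peak positions hold no expression values, so neither the macrophage label nor the level of any microRNA could be checked.

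NRSF is a zinc-finger repressor that recruits corepressors to neuronal genes outside the nervous system. MicroRNAs are short RNAs cut from a hairpin precursor that repress messenger RNAs matching their seed, the stretch from base 2 to base 8. miR-124 and miR-9 are among the most abundant microRNAs of the brain and are known for acting against non-neuronal transcripts and NRSF corepressor components during neuronal differentiation. miR-132 and miR-212 are induced by neuronal activity and growth factors and are known for regulating dendrite growth.

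The mature sequences are shown because they tell which copies encode the same product. RefSeq (GRCm38.p6) sequences were matched for 5 of the 8 genes, the 3 miR-9 genes, Mir132 and Mir212. Each is given 5′ to 3′ with the seed in capitals.
miR-9-5p: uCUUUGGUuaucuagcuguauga
miR-9-3p: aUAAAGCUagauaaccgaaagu
miR-132-3p: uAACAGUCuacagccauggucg
miR-212-3p: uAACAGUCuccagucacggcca
miR-132-5p: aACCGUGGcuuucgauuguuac
miR-212-5p: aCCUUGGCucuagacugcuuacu
The 3 miR-9 genes encoded 1 sequence for each arm, and no other gene of the table carried either miR-9 seed. miR-132-3p and miR-212-3p had the same seed, which no other mature microRNA of the table had, and were identical at 17 of 22 positions. Their 5p arms had different seeds.

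Distances were taken from the midpoint of a peak to the closer end of the gene, and a distance of at most 10 kb counted as a peak at that gene. Of the 8 genes, 6 had a peak, namely Mir124a-1, Mir124a-3, Mir9-1, Mir9-3, Mir132 and Mir212. Over all 1228 microRNA genes the share was 4.32% (53 genes, 95% exact interval 3.25 to 5.61%, counting error only). The 6 genes lay at 5 loci, since Mir132 and Mir212 shared a peak. The genes Mir124a-2 and Mir9-2 had none. In both families of paralogous copies, 2 of the 3 copies had a peak and the remaining copy did not. The 10 kb limit fell in a wide gap: the farthest gene inside it was Mir9-3 at 5839 bp, and the nearest outside it was Mir9-2 at 702609 bp.

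**Figure D1:**
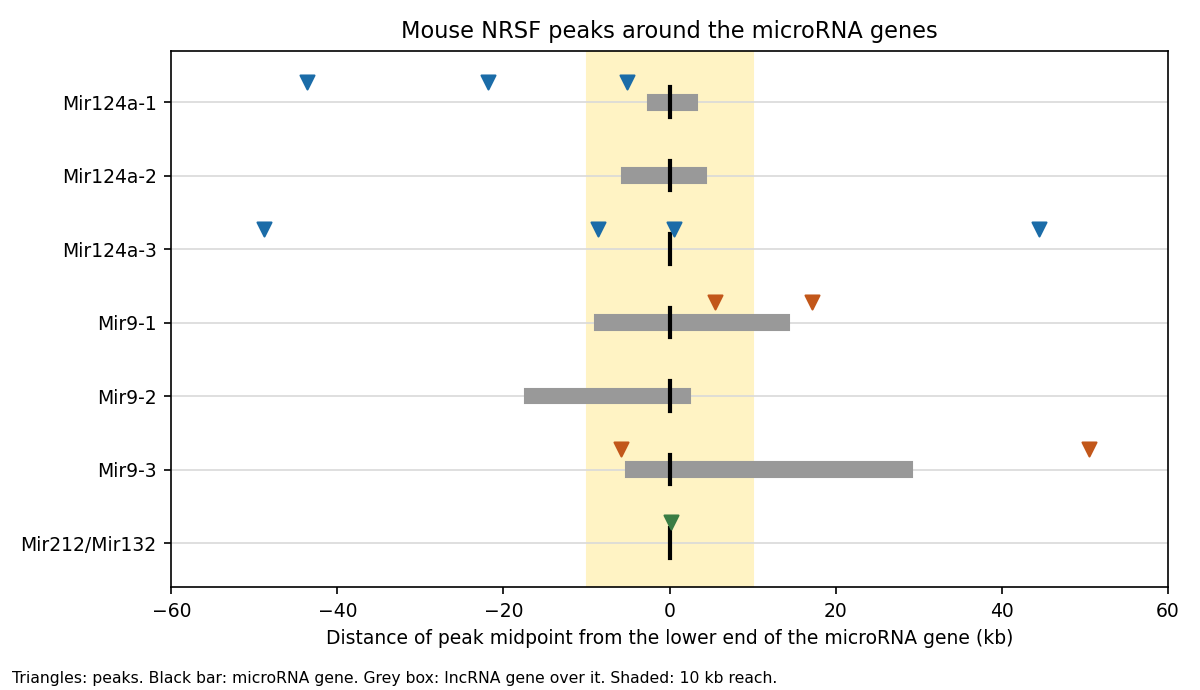
Mouse NRSF peaks (triangles) within 60 kb of each microRNA gene (black bar), by the distance in kb of the peak midpoint from the lower end of the gene; grey boxes are lncRNA genes over it and the shaded band is the 10 kb reach. Mir124a-2 and Mir9-2 have no triangle, whereas Mir124a-3 has 4, 2 of them inside the band.

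The Mir132 and Mir212 locus differed from the others in that the peak covered the hairpins themselves. Mir212 lies on chromosome 11 at 75173388 to 75173478 and Mir132 at 75173682 to 75173747, both on the plus strand, and 204 bp apart. The peak at chr11:75173345-75173745 had its midpoint between them, 67 bp past the end of Mir212 and 137 bp before the start of Mir132. All 91 bases of the Mir212 hairpin and 64 of the 66 bases of the Mir132 hairpin lay inside it. These counts rest on the uniform 400 bp width of the listed peaks. Among all 1228 microRNA genes, 3 overlapped a peak (0.244%), namely Mir212, Mir132 and Mir682, whose midpoint distance was 61 bp. Both hairpins are shown with the mature arms in capitals, as the part of the peak whose sequence was at hand.
Mir212: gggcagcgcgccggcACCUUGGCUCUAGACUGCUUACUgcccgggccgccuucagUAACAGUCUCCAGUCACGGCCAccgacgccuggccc
Mir132: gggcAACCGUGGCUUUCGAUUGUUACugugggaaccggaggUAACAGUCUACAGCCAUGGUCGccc
The hairpins were identical at 51 of 91 aligned positions, where the bases that the shorter Mir132 hairpin lacks count as unmatched. Their G and C content, also over unlike lengths, was 69.2% in Mir212 and 57.6% in Mir132. No annotated lncRNA gene spanned either of them. The nearest protein-coding genes were Hic1, which encodes a transcriptional repressor and whose span ends 3133 bp before Mir212, and Ovca2, whose span begins 2196 bp after Mir132. The peak midpoint lay 3290 bp from Hic1 and 2398 bp from Ovca2, so the microRNA genes were the closest annotated genes to it. The next peaks were 554043 bp from Mir212 and 554337 bp from Mir132.

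**Figure D2:**
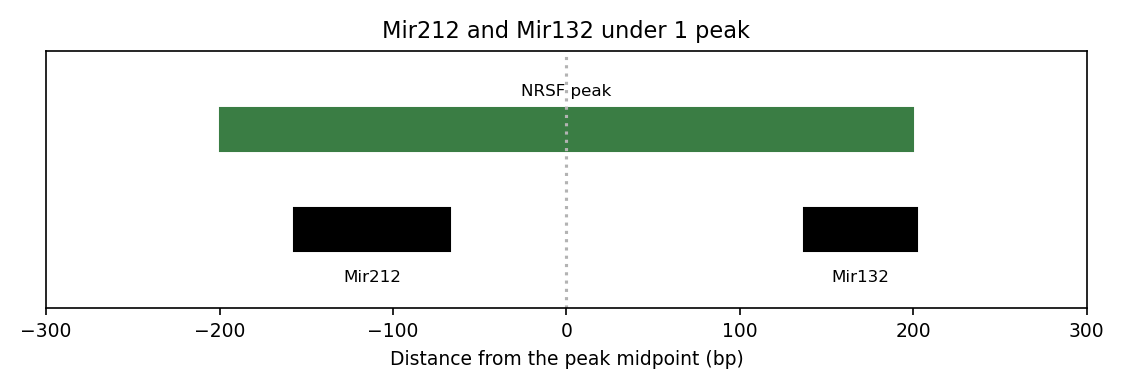
The peak (green) and the Mir212 and Mir132 hairpins (black) to scale, by distance in bp from the peak midpoint. The midpoint falls between the hairpins, and the peak covers 91 bases of Mir212 and 64 of Mir132.

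In the miR-124 family the 3 copies had 3 different arrangements. Mir124a-3, on chromosome 2 at 180894040 to 180894107, had the closest peak of the family, at chr2:180894345-180894745. Its midpoint lay 438 bp beyond the higher end of the gene, and the peak edge 238 bp from it. Another peak, at chr2:180885250-180885650, lay 8590 bp below the lower end. Mir124a-3 was the only one of the 1228 microRNA genes with 2 or more peaks within 10 kb. Within 50 kb it had 4 peaks, a number reached by 2 of the 1228. Of these, the peak 44438 bp away lay inside Nkain4, and the peak 48835 bp away inside the lncRNA genes Gm14344 and Gm14342. Nkain4 encodes a protein that interacts with a sodium pump subunit. No annotated gene spanned Mir124a-3 or either of its 2 closest peaks, and the nearest protein-coding gene was Ythdf1, a reader of methylated adenosine in RNA, 10270 bp above it.

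Mir124a-1 lies on chromosome 14 at 64590657 to 64590741, inside the lncRNA gene Mir124a-1hg (also called Rncr3). Its closest peak, at chr14:64585335-64585735, lay 5122 bp below the microRNA and 2580 bp outside the lower end of Mir124a-1hg. Further peaks lay 21892 and 43662 bp away on the same side. Mir124a-1hg was the closest annotated gene to all 3 of these peaks, and the nearest protein-coding genes were 61751 bp (Kif13b, a kinesin motor) and 134754 bp (Msra, which repairs oxidised methionine) from the microRNA. All 3 peaks within 50 kb of Mir124a-1 were thus below it, whereas those of Mir124a-3 were on both sides.

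Mir124a-2 lies on chromosome 3 at 17795662 to 17795770, inside the lncRNA gene Mir124-2hg. It had no peak within 1 Mb. Its closest peak, at chr3:19694435-19694835, was 1898865 bp above it and 1894564 bp from Mir124-2hg. That peak lay inside Crh, the gene of corticotropin-releasing hormone, and inside the lncRNA gene Gm42189. The distance of Mir124a-2 was 1055th when the 1228 microRNA genes were ordered from the closest, against 6th for Mir124a-3 and 26th for Mir124a-1.

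The 3 miR-9 hairpins are shown because copies with and without a peak differ outside the mature arms only. The arms are in capitals.
Mir9-1: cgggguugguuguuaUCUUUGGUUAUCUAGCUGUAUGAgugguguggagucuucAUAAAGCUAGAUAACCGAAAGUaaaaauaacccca
Mir9-2: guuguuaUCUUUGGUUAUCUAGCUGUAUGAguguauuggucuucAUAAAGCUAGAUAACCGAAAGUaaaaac
Mir9-3: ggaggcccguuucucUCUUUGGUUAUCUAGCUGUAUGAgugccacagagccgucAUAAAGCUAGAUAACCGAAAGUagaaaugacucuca
The annotated Mir9-2 hairpin has 72 bases, against 89 in Mir9-1 and 90 in Mir9-3, and the bases it lacks count as unmatched positions. Mir9-2, the copy without a peak, was identical to Mir9-1 at 70 of 89 aligned positions and to Mir9-3 at 64 of 90. Mir9-1 and Mir9-3, the copies with a peak, were identical at 71 of 90. Because of the unlike lengths, these counts do not rank the copies by similarity. The G and C content, also over unlike lengths, was 40.4% in Mir9-1, 33.3% in Mir9-2 and 45.6% in Mir9-3.

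Mir9-1 lies on chromosome 3 at 88215598 to 88215686, on the plus strand, inside the lncRNA gene Gm3764. Its closest peak, at chr3:88220850-88221250, lay 5364 bp downstream and inside Gm3764, 8909 bp from the closer end of that gene. Another lay 17009 bp downstream of the microRNA, 2736 bp outside Gm3764. Mir9-3, on chromosome 7 at 79505264 to 79505353 and also on the plus strand, had its closest peak upstream, at chr7:79499225-79499625 and 5839 bp away. This midpoint was 601 bp before the annotated start of its host, the lncRNA gene Mir9-3hg. The peaks of Mir9-1 and Mir9-3 were thus at like distances but on opposite sides in the direction of transcription.

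Mir9-2 lies on chromosome 13 at 83738814 to 83738885, inside the lncRNA gene C130071C03Rik. Its closest peak, at chr13:83036005-83036405, was 702609 bp upstream and 685176 bp from the host gene. This peak lay in no annotated gene, and the next one was 5567409 bp from Mir9-2. By distance, Mir9-1 was 27th, Mir9-3 33rd and Mir9-2 813th of the 1228 microRNA genes. Mir124a-1, Mir9-1 and Mir9-3, on 3 chromosomes, lay 5122 to 5839 bp from a peak. Of the 1220 microRNA genes outside the 8, 7 were between 5 and 6 kb from a peak, and 4 of these 7 lay within 1 kb of Mir124a-1, Mir9-1 or Mir9-3.

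**Figure D3:**
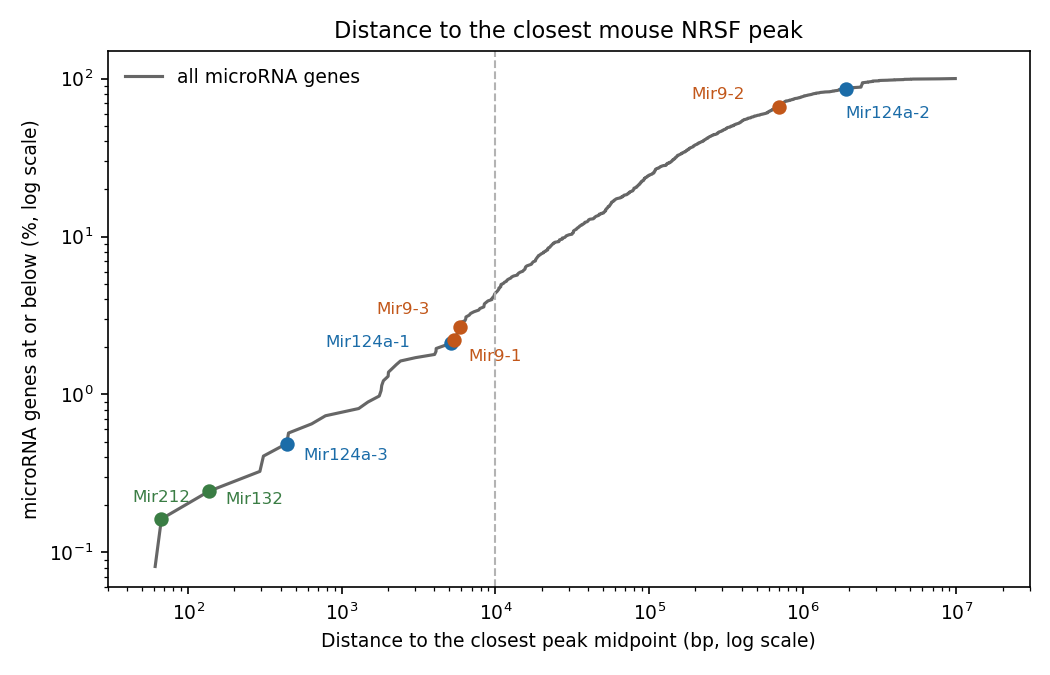
Share of the 1228 microRNA genes (%, log scale) at or below each distance to the closest peak midpoint (bp, log scale), with the 8 genes as points and the 10 kb reach as a dashed line. The 6 genes with a peak lie at 67 to 5839 bp, inside the reach that holds 4.32% of all microRNA genes, and Mir9-2 and Mir124a-2 lie to the right of the median.

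The median distance over all 1228 microRNA genes was 343611 bp, and the middle part of the distribution, between its quartiles, ran from 105 to 921 kb. Mir9-2 was inside that range and Mir124a-2 above it. The absence of a peak within 1 Mb of Mir124a-2 was shared with 285 microRNA genes in all (23.2%, with Mir124a-2 among them). At most 1 peak within 1 Mb, as for Mir9-2, was found at 42.0%.

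The surroundings of the copies also differed. Within 1 Mb, 3 protein-coding genes lay around Mir124a-2 and 2 around Mir9-2, the copies without a peak. The copies with a peak had 18 (Mir124a-1), 60 (Mir124a-3), 67 (Mir9-1) and 40 (Mir9-3). The median over all microRNA genes was 22, and 53 of the 1228 (4.32%) had 3 or fewer. Peaks within 1 Mb numbered 0 around Mir124a-2 and 1 around Mir9-2, against 8, 15, 7 and 3 around Mir124a-1, Mir124a-3, Mir9-1 and Mir9-3. These numbers include the peaks within 10 kb that set the copies apart. Between 10 kb and 1 Mb there were 0 around Mir124a-2 and 1 around Mir9-2, against 7, 13, 6 and 2. A number of 15 or more, as at Mir124a-3, was found at 6 microRNA genes of 1228.

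**Figure D4:**
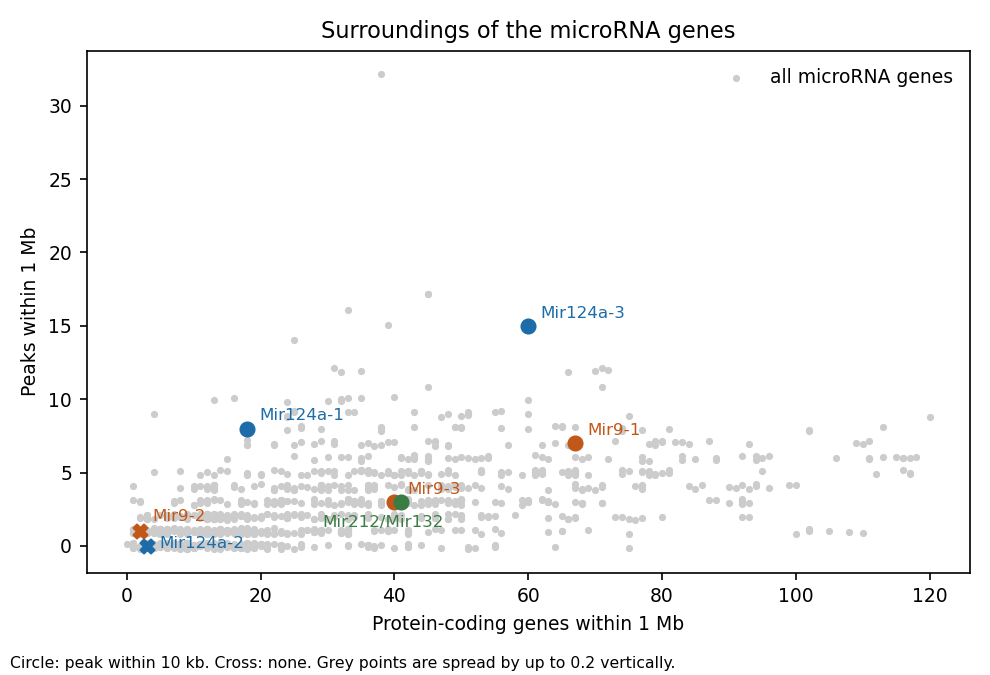
Peaks within 1 Mb against protein-coding genes within 1 Mb for the microRNA genes (circles: peak within 10 kb; crosses: none; grey: all 1228 microRNA genes). Both crosses are at the lower left, with at most 1 peak and 3 protein-coding genes, and the circles have at least 3 peaks and 18 protein-coding genes.

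The share with a peak within 10 kb was also taken over all microRNA genes by their surroundings. When the 1228 were ordered by the number of protein-coding genes within 1 Mb and divided into 4 sets of 307, 8 in the first set had a peak (2.61%, 95% exact interval 1.13 to 5.07%). The next sets had 9 (2.93%) and 14 (4.56%). The last had 22 (7.17%, interval 4.55 to 10.6%). The intervals of the first and last sets overlap, microRNA genes of a cluster share their surroundings, and no test was made. The part of gene density in the missing peaks of Mir124a-2 and Mir9-2 was not tested.

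Protein-coding neighbours of the copies belong in part to shared families. Mef2d and Mef2c, which encode MEF2 transcription factors, are the nearest protein-coding genes on the lower side of Mir9-1 (43507 bp) and Mir9-2 (71735 bp). The closest peaks to these genes were 48959 bp from Mef2d and 467812 bp from Mef2c, and were the same peaks as those closest to Mir9-1 and Mir9-2. Rhbg and Rhcg, which encode ammonium transporters, flank Mir9-1 and Mir9-3 on the higher side. Their closest peaks were 10179 and 37533 bp away, and were the next peaks of Mir9-1 and Mir9-3 after the closest. Ythdf1 lies near Mir124a-3, and the peak closest to Mir124a-3 was 9832 bp from Ythdf1. Ythdf3 is the nearest protein-coding gene on the lower side of Mir124a-2, lying 1578625 bp from the microRNA. The closest peak to Ythdf3 itself was 946943 bp away.

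The hairpins of the 5 matched genes and 300-base RefSeq windows around annotated starts were searched on both strands. A gene could have more than 1 window, and not every window was at its outer end. The searches were for AGCACC and GGACAG, 6-letter pieces from the left and right parts of the NRSF element, and for both together with 2 letters between. None of the 3 was found in the 5 hairpins. Of the 32851 windows, 16.2% held AGCACC, 22.2% held GGACAG and 0.0517% (17 windows) held both at that spacing. Of the 145 windows that overlapped a mouse peak, 10 held both. The windows at the hosts Gm3764, Mir9-3hg and C130071C03Rik, 6 in all, held no such pair, and none overlapped a peak. Singly, AGCACC was in 2 of 3 windows and GGACAG in 1 of 3 at C130071C03Rik, the host of Mir9-2. At Mir9-3hg, AGCACC was in 1 of 2 windows and GGACAG in 0, and the Gm3764 window held neither. That window, at 88214232 to 88214531, lay inside Gm3764, whose span begins at 88206673, so the lower end of the gene was not searched. The Mir9-3hg window closest to its peak began 151 bp from the peak edge. Apart from the Mir212 and Mir132 hairpins, no sequence under the peaks of these loci was at hand. The bases between those hairpins, where the peak midpoint lies, were not searched either. The searches therefore cannot tell whether the peaks hold the element.

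The microRNA genes most like these by distance, among the other 1220, were Mir682, Mir6936, Gm51271, Mir5126 and Mir1932, at 61, 293, 309, 450 and 637 bp. In all, 6 of the others lay within 1 kb of a peak, and with Mir132, Mir212 and Mir124a-3 they made up 0.733% of the 1228.

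Further microRNAs enriched in neurons or linked to NRSF were counted from a list of 31 names, of which 30 matched. Of these, 8 had a peak within 10 kb, against 4.32% of all microRNA genes, with a median distance of 148 kb. The closest was Mir7b at 783 bp, followed by Mir139 at 2002 bp, Mir137 at 2267 bp and Mir129-2 at 4102 bp. Mir375, which acts in endocrine cells, Mir135b, Mir29a and Mir29b-1 had peaks at 8933, 9483, 9505 and 9868 bp, and the last 2 shared theirs. Of the 8 matched myeloid microRNAs none had a peak within 10 kb, and the closest was Mir146b at 15627 bp. These 8 genes are too few to set that absence apart from the 4.32% of all microRNA genes. The median distance of the 8 was 298 kb, against 344 kb over all microRNA genes. Of the 9 names on the myeloid list, Mir146a matched no gene and was left out. The annotation holds a Mir146, which may be the gene meant, with its closest peak 1374707 bp away. The median is therefore not read as closer to peaks than that of all microRNA genes. Mir155 and Mir223, known for their roles in myeloid cells, had closest peaks 3090675 and 6457909 bp away. The list of 31 names includes reported NRSF targets, so its count is not independent of how it was chosen.

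Genes of the circuit around these microRNAs had a peak inside or within 10 kb in 7 of 35 cases, against 7.49% of all 21900 protein-coding genes. These 35 were chosen with earlier results of these data known, so the count is not independent of that choice. Among NRSF and its corepressors the count was 1 of 11, Rest itself, with 2 peaks. The corepressor genes Rcor1 and Sin3a had closest peaks 563323 and 265166 bp away. Among 9 genes of the miR-124 and miR-9 circuit, 2 had a peak. These were Actl6b, the neuronal subunit of the BAF remodelling complex, with a peak inside the gene and 234 bp from an end, and Ptbp2, a neuronal splicing factor, with one 8931 bp away. Their non-neuronal counterparts Actl6a and Ptbp1, which miR-9 and miR-124 are known to repress, had none closer than 256882 and 136257 bp. Ctdsp1, a phosphatase that works with NRSF and is a known target of miR-124, had its closest peak at 145235 bp.

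The remaining groups were of 5 genes each, too few to set a count of 0 or 1 apart from the 7.49% of all protein-coding genes. Of 5 known miR-9 targets, 3 had a peak inside the gene. This group was chosen with earlier results of these data known, and its count was not tested. Hes1, a Notch-responsive repressor, had a midpoint 28 bp inside an end, Nr2e1, an orphan receptor of neural stem cells, had 2 peaks, and Onecut1 had 1, 6644 bp inside an end. Of 5 genes linked to miR-132, Bdnf, a neurotrophin that induces it, had a peak, 1355 bp inside an end. Arhgap32, a known miR-132 target in dendrite growth, had none closer than 595022 bp. None of the 5 genes of microRNA processing had a peak within 10 kb, and the closest was at Ago2, 74700 bp away.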

How the data were processed

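NRSF ChIP-seq was made in mouse, dog and horse cells (9 samples), and only the mouse peak list was used here. Per the submitters' processing notes, Bowtie 0.12.8 and MACS 1.4.2 were used, with mm10 (GRCm38) named among the builds; for their settings, the peak threshold and the handling of replicates the sources used here give nothing. The values the authors deposited are a chromosome, a start and an end in bp for each peak, in no other unit. Depth per sample is unknown. Gene positions, which are spans without exons, came from RefSeq GRCm38.p6. The distance of a gene was taken from the peak midpoint to its closer end. Peak starts may count from 0 or from 1, a difference of 1 base. All 2357 starts are multiples of 5 and all peaks have the same width. Counts of bases inside a peak are therefore no finer than that spacing. Strand came from the RefSeq microRNA table and was not taken for the miR-124 genes. Hairpins were aligned globally (match 1, mismatch -1, gap -2 to open and -1 to extend). Python 3.11.15, pandas 2.3.3, numpy 2.4.6, scipy 1.17.1 and biopython 1.88 were used. The distance code was tested on simulated data over the 1228 microRNA genes, and 200 of 200 planted distances were recovered.

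No test was run, because 1 list without values per replicate has no error between samples. The genes, lists and reach were chosen with earlier results of these data known. Genes named are the 8, their hosts and neighbours, the 5 other microRNA genes closest to a peak and list members, chiefly those with a peak. List members without a peak that are named, Mir146, Nkain4 and the pairs of neighbours from shared families were picked with their values in view. The alternatives were other reaches, the peak edge, the gene midpoint, starts counted from 0, and clustered genes counted as 1 locus.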

Additional observations from a re-analysis of the deposited data

How the results depend on the processing

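No paired analysis was possible because the list holds no column per replicate, and leaving out a replicate was not possible for the same reason. A stricter peak threshold was not run, since peaks carry no score. Of 47 alternative values, 31 stayed within 1.5 times the reported one. The number of the 8 genes with a peak was 6 at reaches of 10, 20, 50 and 100 kb and from the peak edge, and 5 of 7 with Mir132 and Mir212 as 1 locus. At 1, 2 and 5 kb it was 3, and 1 of the 6 paralogous copies had a peak, against 4 at 10 kb and beyond, because Mir124a-1, Mir9-1 and Mir9-3 lie between 5 and 6 kb from a peak. The share of all microRNA genes was 0.733%, 1.22% and 2.04% at 1, 2 and 5 kb, and 7.74%, 14.0% and 24.3% at 20, 50 and 100 kb. It was 4.397% from the peak edge and 4.45% over 943 loci. Of 24 alternative distances, 4 moved by more: from the peak edge, Mir124a-3 stood at 238 bp and Mir132 and Mir212 at 0 bp, and from the gene midpoint Mir212 stood at 112 bp. Weak binding below the peak threshold at Mir124a-2 or Mir9-2 cannot be seen in a list of positions.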

Other observations

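Other microRNA families of the same list also had copies with and without a peak within 10 kb. Mir129-2 had a peak 4102 bp away and Mir129-1 its closest at 40004 bp. Mir7b had one at 783 bp, whereas Mir7-1 and Mir7-2 had their closest at 93109 and 390252 bp. Mir29a and Mir29b-1, which lie side by side, shared a peak at about 10 kb, and the Mir29b-2 and Mir29c pair had its closest peak at 1297990 and 1298497 bp. Mir135b had a peak at 9483 bp, against 260239 bp for Mir135a-1 and 438541 bp for Mir135a-2. No copy had a peak within 10 kb in the miR-138, miR-128, miR-218 and miR-219 families, where the closest were Mir138-1 at 18991 bp and Mir219a-1 at 52178 bp. These families were picked out of the list after their values were seen.

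Further annotated microRNA genes lie at the same loci, and their position puts them at nearly the same distance from a peak. Mir3078 lies 444 bp above Mir124a-1 and was 5650 bp from the same peak, and Mir3093 lies 341 bp below Mir9-1, 5793 bp from its peak. Gm25641 and Gm51285 (Mir9b-1 and Mir9b-3), annotated over the Mir9-1 and Mir9-3 hairpins, were 5380 and 5854 bp from a peak. Gm51272 (Mir124b), over Mir124a-2, and Gm51268, over Mir9-2, had their closest peaks 1898894 and 702616 bp away.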
